A study of Mus musculus with 19 samples.

Results

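The 4 genes described here, Bcl11b, Fezf2, Sox5 and Tox, encode DNA-binding proteins of cortical projection neurons. They were chosen by name, with earlier results of these data known, so their direction here is not independent evidence. They are 4 of 18193 genes that each had a probe set on the array. A probe set is a group of short probes read together as 1 value. Each gene was read from its brightest probe set over 19 arrays, with every other probe set of the gene kept as a check. The 4 genes have 15 probe sets in all.

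Affymetrix Mouse Genome 430 2.0 arrays were used to measure RNA in 3 kinds of cortical neuron from C57BL/6 mice, and the labels name no genetic change and no drug in any group. The axons of corticospinal motor neurons (CSMN) reach the spinal cord, those of callosal projection neurons (CPN) cross to the other hemisphere, and those of corticotectal projection neurons (CTPN) reach the midbrain tectum. Cells took up green fluorescent microspheres at their axon endings and were sorted by that fluorescence, so each group held the cells that the injection reached rather than every cell of the type. CTPN were taken at postnatal day 14 (P14) alone, and the other types at that age, at embryonic day 18 (E18) and at days 3 and 6 after birth (P3 and P6). There are 3 arrays of CSMN at P3 and 2 of each other group, stated to come from separate collections of cells. The protocol names sensorimotor cortex for CSMN and CPN and visual cortex for CTPN, so that neuron type and cortical area cannot be told apart in comparisons with CTPN.

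As background, CSMN and CTPN are both subcerebral projection neurons of layer 5, which leave the cortex for targets below it. Fezf2, a zinc finger protein, specifies subcerebral neurons, and Bcl11b, the zinc finger protein also called CTIP2, acts downstream of it in the outgrowth and bundling of corticospinal axons. Sox5, an HMG-box protein of the SoxD group, controls the order in which deep-layer neurons acquire their identities, and Tox is an HMG-box protein best known from T-cell development.

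The 250 bases of genome just before the annotated start are shown for the 3 genes that RefSeq's promoter table (build GRCm38.p6) holds, because the genes were high in the same neurons and their start regions can be set side by side. Each is written 5′ to 3′ on the gene's own strand, the minus strand in all 3, in lower case. Capitals mark the letters ACAAT (a core that SOX proteins recognise, ATTGT on the other strand) and GGGCGG (a GC box, CCGCCC on the other strand). The windows lie at chr12:108003415-108003664 for Bcl11b, chr14:12345866-12346115 for Fezf2 and chr6:143947107-143947356 for Sox5, and other annotated transcripts of each gene begin further upstream.
Bcl11b: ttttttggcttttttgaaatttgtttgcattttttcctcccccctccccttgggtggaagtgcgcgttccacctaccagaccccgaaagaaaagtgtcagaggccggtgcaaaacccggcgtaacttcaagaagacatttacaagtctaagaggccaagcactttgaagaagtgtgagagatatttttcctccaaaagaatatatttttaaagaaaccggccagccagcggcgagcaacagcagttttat
Fezf2: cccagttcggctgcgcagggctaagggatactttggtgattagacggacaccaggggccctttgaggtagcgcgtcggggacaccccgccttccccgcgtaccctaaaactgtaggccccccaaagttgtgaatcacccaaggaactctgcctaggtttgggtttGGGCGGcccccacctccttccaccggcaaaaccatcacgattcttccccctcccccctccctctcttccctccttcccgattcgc
Sox5: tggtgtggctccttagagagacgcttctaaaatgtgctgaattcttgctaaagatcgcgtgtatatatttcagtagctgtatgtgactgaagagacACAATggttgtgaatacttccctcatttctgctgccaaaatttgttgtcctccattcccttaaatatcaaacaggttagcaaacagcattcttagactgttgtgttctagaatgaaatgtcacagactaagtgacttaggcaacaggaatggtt
The Fezf2 window was the richest of the 3 in G and C (61.2%, with 14 CpG), Bcl11b had 44.8% with 9 CpG and Sox5 39.6% with 3 CpG, beside medians of 52.4% and 6 CpG over 32851 windows of the same length. Sox5 held 1 ACAAT and Fezf2 held 1 GGGCGG. On either strand, 27.7% of all windows hold the first and 32.7% the second. The letters TATAAA, or TTTATA on the other strand, were in none of the 3 windows and in 12.4% of all. These matches describe the letters of the windows and were not measured as binding.

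All values are log2 expression, where a difference of 1 is a 2-fold difference in signal. Array medians ran from 6.42 to 6.62. Levels of different genes are not compared, since probe sets differ in how brightly they bind. A sorted population holds many cells, so fewer cells of a type and less RNA per cell cannot be told apart. The levels of markers of each class were read as a description. Some of the corticospinal markers, Crym, Ldb2 and Pcp4 among them, are also in the corticospinal list described further below. That list was drawn up partly on samples of the same kind, so the level of these markers in CSMN is not an independent check. The 9 glutamatergic markers, among them Slc17a7 and Neurod6, averaged 9.67 to 10.78 in every array, and the 5 corticospinal markers (Crym, Ldb2, Pcp4 and others) averaged 9.57 to 11.47 in CSMN, 11.24 to 11.32 in CTPN and 7.55 to 9.32 in CPN. The 6 callosal markers, Cux2 among them, averaged 8.96 to 10.10 in CPN and 6.25 to 8.19 in CSMN. The CPN arrays at E18 stood apart: the 12 progenitor markers, among them Sox2 and Fabp7, averaged 10.68 to 10.84 there, against 6.84 to 6.97 in CSMN of that age and 6.49 to 8.13 in the other groups, with at most 1 of the 12 below the array median. The 13 cell cycle markers averaged 9.60 to 9.77 in CPN at E18 and 6.46 to 7.38 elsewhere. The CSMN arrays at P14 differed most from each other, with a median SD over genes of 0.46 where the other groups had 0.07 to 0.26. Their 8 microglial markers averaged 8.98 in replicate 1 and 7.20 in replicate 2. These markers were also split in CPN at E18 (7.78 and 8.98) and in CSMN at P6 (7.57 and 8.65), and ran from 6.83 to 7.70 in the other groups. The 8 astrocyte markers averaged 9.48 to 9.67 in CPN and 6.81 to 6.88 in CSMN at E18. There 5 of 8 were called lower in CSMN, beside 8.94% of all genes. At P3 the averages were 8.30 to 8.45 in CPN and 7.25 to 7.72 in CSMN. At P14 they were 8.11 to 8.24 in CPN and 7.82 to 7.86 in CSMN. There 2 of 8 were called lower, Aldh1l1 among them (-1.83), beside 0.945% of all genes. The astrocyte averages were the other way round at P6, at 7.44 to 8.36 in CPN and 8.51 to 8.60 in CSMN. The part of these markers in the results was not tested.

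All 4 genes were higher in CSMN than in CPN. As the mean of the 4 stages, the log2 difference was 2.95 ± 0.20 (SE) for Bcl11b, a 7.73-fold difference, 1.92 ± 0.14 for Fezf2 (3.80-fold), 1.15 ± 0.14 for Tox (2.23-fold) and 1.06 ± 0.14 for Sox5 (2.08-fold). The limma adjusted p-values were 5.83e-07, 7.32e-07, 8.48e-05 and 0.000171. Over all genes, 2.96% were called higher in CSMN by this test (adjusted p under 0.05) and 8.29% were called in either direction, and the median difference of all genes was 0.061. Without E18, the mean of P3, P6 and P14 was 3.28, 2.12, 1.36 and 1.07 in the same order of genes, and all 4 passed, beside 2.08% of all genes called higher.

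The genes also separated the neuron types array by array. As read from the probe sets used, every CSMN array lay above each CPN array of the same stage, for all 4 genes and all stages. This held for 29.2% of all genes at E18, 21.0% at P3, 27.8% at P6 and 14.0% at P14, but at all 4 stages together for 176 genes, 0.967%. Tox probe set 1425484_at overlapped at E18, at 7.10 to 7.12 in CSMN and 6.78 to 7.79 in CPN. Sox5 probe set 1440827_x_at overlapped at P14, at 5.95 to 8.22 in CSMN and 6.98 to 7.51 in CPN. The dim Sox5 probe sets described below also overlapped. Every other probe set of Bcl11b, Sox5 and Tox separated the types at all 4 stages. The stricter demand of a call higher at every single stage was met by Bcl11b and Fezf2 and by 8 genes in all, 0.044%. It depended on the settings of the fit. With array weights, and with only the groups compared, both genes lost the P14 call and Bcl11b also lost the E18 call. With only the groups compared, Bcl11b lost the P6 call as well.

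**Figure D1:**
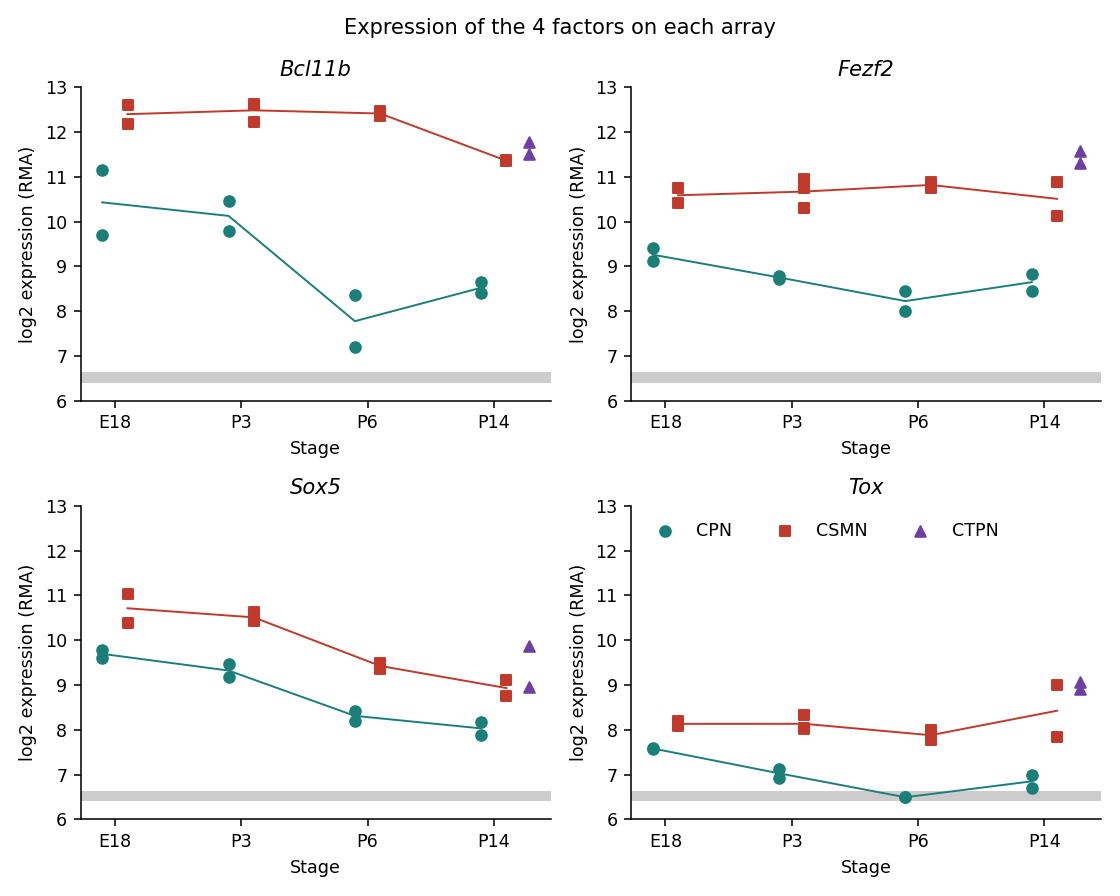
Log2 expression (vertical axis) of Bcl11b, Fezf2, Sox5 and Tox against stage (E18, P3, P6, P14), 1 panel a gene, with 1 point per array, lines through the group means, colours for CPN, CSMN and CTPN, and a grey band for the range of the array medians, 6.42 to 6.62. In each panel the CSMN points lie above the CPN points of the same stage, with the widest distance at P6 for Bcl11b.

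Fezf2, the gene that specifies subcerebral neurons, was called higher in CSMN at every stage. In CSMN it was 10.75 and 10.42 at E18, 10.95, 10.75 and 10.31 at P3, 10.88 and 10.76 at P6, then 10.89 and 10.12 at P14. In CPN it was 9.41 and 9.11 at E18, 8.72 and 8.78 at P3, 8.45 and 8.0 at P6, then 8.84 and 8.46 at P14. The CSMN arrays of all stages overlapped, and the lowest of them lay above the highest CPN array. In CTPN it was 11.57 and 11.30, above every other array of the series. The difference between CSMN and CPN was 1.33 at E18, 1.92 at P3, 2.59 at P6 and 1.86 at P14, each with an SE of 0.25 to 0.28. It passed the test at each stage, with limma adjusted p-values of 0.00615, 0.00175, 0.000215 and 0.00324. The call at E18 was lost without CPN replicate 2 (adjusted p = 0.0514) and that at P14 without CPN replicate 2 (0.0666), with differences of 1.17 and 1.67. Fezf2 was called in neither type between P14 and E18. The difference was -0.61 in CPN (adjusted p = 0.160, 95% interval -1.21 to -0.017) and -0.079 in CSMN (0.885, interval -0.68 to 0.52).

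Bcl11b, which acts downstream of Fezf2, had the largest difference between the types among the 4 genes. In CSMN it was 12.19 and 12.61 at E18, 12.62, 12.60 and 12.23 at P3, 12.47 and 12.36 at P6, then 11.35 and 11.37 at P14. The first 3 of these groups overlapped, and both P14 arrays lay below them. In CPN it was 9.71 and 11.15 at E18, 10.46 and 9.80 at P3, 7.19 and 8.36 at P6, then 8.40 and 8.65 at P14. The CPN arrays at E18 and P3 overlapped and lay above those at P6 and P14. The difference between CSMN and CPN was 1.97 ± 0.42 at E18, 2.36 ± 0.38 at P3, 4.64 ± 0.42 at P6 (24.9-fold) and 2.84 ± 0.42 at P14. The limma adjusted p-values were 0.00646, 0.00641, 5.62e-05 and 0.00289, beside 3.98%, 0.5%, 0.671% and 0.445% of all genes called higher at these stages.

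The 2 CPN arrays at E18 differed by more than any other pair for Bcl11b, and the size of the E18 difference depended on them. Without replicate 1 (9.71) it was 1.25 and was not called (adjusted p = 0.0913), and without replicate 2 (11.15) it was 2.69. It was also lost without CSMN E18 replicate 2 (1.76, adjusted p = 0.053). The call at P3 was lost without CPN P3 replicate 2 (2.03, adjusted p = 0.200) and that at P14 without CPN P14 replicate 1 (2.71, adjusted p = 0.0604), while the call at P6 passed without any 1 array, at 4.05 to 5.22.

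Within CPN, Bcl11b fell by 1.91 on the log2 scale between E18 and P14 (limma adjusted p = 0.0042), beside 8.98% of all genes called lower. Without CPN E18 replicate 2 the difference was -1.18 and not called (adjusted p = 0.0763). From P6 to P14 the CPN difference was 0.75, in the other direction, and not called (limma adjusted p = 0.448). The step from P3 to P6 was larger than the whole fall, at -2.35 ± 0.42. That step was not called (adjusted p = 0.232), except with array weights (-2.35, adjusted p = 0.0118). Only 1 gene of 18193 was called in that step in CPN (0.0055%), with 386 genes at an unadjusted p under 0.05. In CSMN the difference between P14 and E18 was -1.04 (adjusted p = 0.112, 95% interval -1.93 to -0.15), beside 5.85% of all genes called lower. Whether the CSMN-to-CPN difference itself changed over time was tested as an interaction, and it was 0.87 between E18 and P14 (adjusted p = 0.464, interval -0.40 to 2.13). Without CPN E18 replicate 1 this was 1.59 and without replicate 2 it was 0.14, and neither was called. For the step from P3 to P6 it was 2.28 (interval 1.07 to 3.49), with an unadjusted p of 0.00116 and an adjusted p of 0.805. With array weights it was 2.21 and was called (adjusted p = 0.0201). Without weights no gene was called in that interaction by limma, and 228 genes had an unadjusted p under 0.05.

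Sox5, which times the identities of deep-layer neurons, was the one gene of the 4 called lower at P14 than at E18 in both types. In CSMN it was 11.03 and 10.39 at E18, 10.62, 10.42 and 10.48 at P3, 9.50 and 9.35 at P6, then 9.11 and 8.76 at P14. In CPN it was 9.79 and 9.60 at E18, 9.47 and 9.18 at P3, 8.41 and 8.21 at P6, then 8.18 and 7.88 at P14. Both series kept the same order of stages, and CPN at E18 lay above CSMN at P6 and P14. Between E18 and P14 Sox5 fell by 1.66 in CPN (limma adjusted p = 0.000542) and by 1.78 in CSMN (adjusted p = 0.000623). Over all genes, 8.98% were called lower over that time in CPN and 5.85% in CSMN. The 2 falls of Sox5 differed by -0.12 (adjusted p = 0.912, 95% interval -0.96 to 0.73). Not every other Sox5 probe set kept these calls. In CPN the dim ones and a brighter one lost the call or changed sign, and in CSMN only dim ones did. In both types most of the distance lay between P3 and P6, with -1.01 in CPN and -1.08 in CSMN, and neither step was called (adjusted p = 1 and 0.342). With array weights the CSMN step was -1.03 and was called (adjusted p = 0.000206).

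The distance between CSMN and CPN was narrower for Sox5 than for Bcl11b and was called at 2 of 4 stages. It was 1.02 ± 0.28 at E18 (limma adjusted p = 0.0277). It was 1.19 ± 0.26 at P3 (0.0427), 1.12 ± 0.28 at P6 (0.0859) and 0.90 ± 0.28 at P14 (0.171). The unadjusted limma p was 0.00256 at E18 and 0.00127 at P6. The adjustment is made within each stage, and 12.9% of all genes were called in either direction at E18 against 1.07% at P6. A call at 1 stage and none at another is therefore not a difference between the stages. No interaction between stages was called for Sox5. The P3 call was lost when any 1 of 13 of the 19 arrays was left out, at 1.04 to 1.33, and with the replicate number as a block (adjusted p = 0.0696). The E18 call was lost without either CPN array of that age (1.11 and 0.93), or without CSMN replicate 1 (0.70, adjusted p = 0.161).

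Tox was called higher in CSMN at P6 and P14, and in CPN it lay close to the array medians after E18. In CPN it was 7.60 and 7.57 at E18, 6.93 and 7.13 at P3, 6.49 and 6.50 at P6, then 6.99 and 6.70 at P14. In CSMN it was 8.19 and 8.08 at E18, 8.33, 8.02 and 8.05 at P3, 7.99 and 7.77 at P6, then 9.01 and 7.84 at P14. The CSMN arrays of the first 3 stages lay within a narrow band, and those of P14 lay far apart. The difference between CSMN and CPN was 0.55 ± 0.28 at E18 (limma adjusted p = 0.208). It was 1.11 ± 0.26 at P3 (0.0633), 1.39 ± 0.28 at P6 (0.0265) and 1.58 ± 0.28 at P14 (0.0106). The model takes 1 spread per gene for all groups, so the SE at P14 does not follow the wide spread of CSMN there (SD 0.82). The increase of this difference from E18 to P14 was 1.03 (95% interval 0.18 to 1.88) and was not called (adjusted p = 0.165), beside 5.18% of all genes called in it. It was 1.61 and called without CSMN P14 replicate 2 (adjusted p = 0.00189) and 0.44 without replicate 1.

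The P14 values of Tox rest on which CSMN array is used. Without replicate 1 (9.01) the difference from CPN at P14 was 0.99 and still passed, and without replicate 2 (7.84) it was 2.16. It was not called without CPN P14 replicate 1 (1.72, adjusted p = 0.0751) or replicate 2 (1.43, 0.154). The P6 call was lost without any 1 of the 4 arrays compared (1.28 to 1.50). Between E18 and P14 Tox in CSMN differed by 0.29 (limma adjusted p = 0.541), by 0.88 without CSMN P14 replicate 2 (adjusted p = 0.00782) and by -0.29 without replicate 1. In CPN the difference between P14 and E18 was -0.73 (adjusted p = 0.0888).

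**Figure D2:**
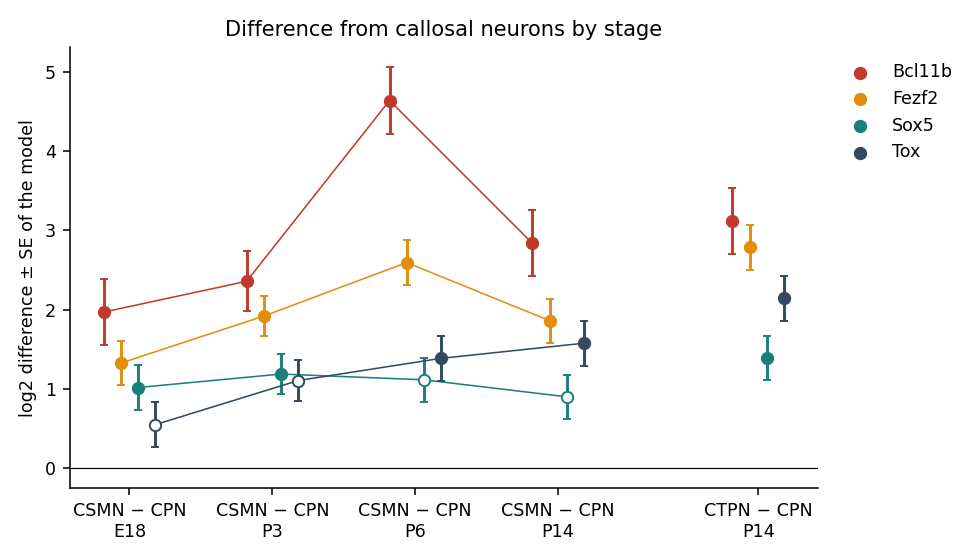
Log2 difference from CPN (vertical axis) for each of the 4 genes, as CSMN minus CPN at E18, P3, P6 and P14 and as CTPN minus CPN at P14, with bars for the SE of the model; filled points passed the test at adjusted p under 0.05 and open points did not. All points lie above 0, Bcl11b is highest at P6 at 4.64, and Sox5 at P6 and P14 and Tox at E18 and P3 are open.

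At P14, CTPN and CSMN can be set beside CPN. In CTPN, Bcl11b was 11.50 and 11.79, Fezf2 11.57 and 11.30, Sox5 8.97 and 9.87, and Tox 8.91 and 9.06. All 4 genes were called higher in CTPN than in CPN, by 3.12 ± 0.42 for Bcl11b, 2.79 ± 0.28 for Fezf2, 2.14 ± 0.28 for Tox and 1.39 ± 0.28 for Sox5. The limma adjusted p-values were 0.00131, 0.000218, 0.00109 and 0.0255, beside 0.456% of all genes called higher. This comparison uses the same CPN arrays as that of CSMN with CPN at P14, where the differences were 2.84, 1.86, 1.58 and 0.90 in the same order. The Sox5 call was lost without CTPN replicate 2 (0.94, adjusted p = 0.316) and without either CPN array (1.54 and 1.24).

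Between the 2 subcerebral types none of the 4 was called. The difference, CTPN minus CSMN, was 0.92 for Fezf2 (limma adjusted p = 0.356, 95% interval 0.33 to 1.52), 0.56 for Tox (0.576, interval -0.037 to 1.17), 0.49 for Sox5 (0.604, interval -0.11 to 1.09) and 0.29 for Bcl11b (0.840, interval -0.61 to 1.18). By this test 35 of 18193 genes were called, 0.192% (0.137% higher), and 1602 had an unadjusted p under 0.05. Both CTPN arrays lay above both CSMN arrays for Fezf2 and for Bcl11b, as they did for 12.5% of all genes, and the arrays overlapped for Sox5 and Tox. The answer turned on which CSMN P14 array was kept. Replicate 1 had the higher microglial markers, and replicate 2 had the highest median (6.62) and the lowest upper quartile (7.85) of all arrays. The part of either trait was not tested. Without replicate 1 the Fezf2 difference was 1.31 and the Tox difference 1.15. Both were then called, with replicate 2 alone standing for CSMN at P14. Without CSMN P14 replicate 2 they were 0.54 and -0.018. For Sox5 the difference was 0.94 without CTPN replicate 1 and 0.034 without replicate 2, and for Bcl11b 0.43 and 0.14, none of them called.

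The order of the 9 groups differed between the genes. For Bcl11b, CSMN at P3, P6 and E18 (means of 12.49, 12.41 and 12.40) overlapped at the top, followed by CTPN (11.65), CSMN at P14 (11.36), CPN at E18 and P3 (10.43 and 10.13, overlapping), CPN at P14 (8.52) and CPN at P6 (7.78). For Fezf2, CTPN led (11.43), the 4 CSMN groups followed between 10.82 and 10.51 with arrays that overlapped from each to the next, and CPN ran from 9.26 at E18 to 8.22 at P6. For Tox, CTPN (8.99) overlapped CSMN at P14 (8.43), which overlapped CSMN at P3 and E18 (8.13 each). Sox5 was the exception, because age and type interleaved. CSMN at E18 and P3 (10.71 and 10.51) led, CPN at E18 came next (9.69), and CSMN at P6, CTPN and CPN at P3 (9.43, 9.42 and 9.32) overlapped. Neighbours whose arrays overlap do not differ beyond their spread.

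Where a gene had more than 1 probe set, these gave a check on the reading. The probe sets used were 1435227_at for Bcl11b, 1418790_at for Fezf2, 1423500_a_at for Sox5 and 1442039_at for Tox. The 3 other Bcl11b probe sets had mean CSMN-to-CPN differences of 2.55, 3.62 and 3.35, and both other Tox probe sets had 0.92 and 0.84. All 5 passed the test, which 6.89% of 34945 probe sets with 1 symbol did. Of the 6 other Sox5 probe sets, 3 passed, with 1.09, 0.96 and 1.29. The remaining 3 had 0.14, 0.13 and 0.17 and were dim, with means of 5.42, 6.19 and 4.54, above the array median in 0, 2 and 0 of 19 arrays. Fezf2 has a single probe set and so no such check. For Bcl11b the fall between E18 and P14 depended on the probe set. Probe sets 1438784_at and 1452966_at gave -0.88 and -1.39 in CPN, not called, and -1.40 and -2.09 in CSMN, both called.

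**Figure D3:**
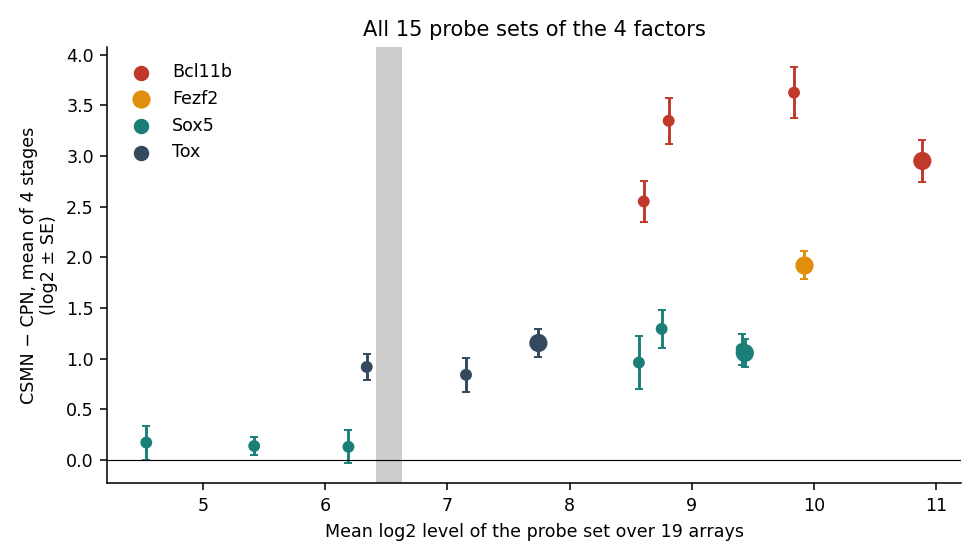
Log2 difference between CSMN and CPN as the mean of 4 stages (vertical axis, bars for the SE) against the mean log2 level over 19 arrays (horizontal axis) for the 15 probe sets of Bcl11b, Fezf2, Sox5 and Tox, with the probe set used for each gene as a large point and the range of array medians as a grey band. The 3 Sox5 probe sets near 0, at 0.13 to 0.17, lie left of the grey band, and every other point lies between 0.84 and 3.62.

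None of the closest relatives of the 4 genes was called higher in CSMN as the mean of 4 stages. All 7 paralogs listed were measured, with 3 called lower, a median difference of -0.11 beside 0.061 over all genes, and 5.34% of all genes called lower. Bcl11a, the paralog of Bcl11b, differed by -0.36 (limma adjusted p = 0.0332), Sox6, which is SoxD like Sox5, by -0.48 (0.0355), and Tox3 by -1.12 (0.00151). Tox2 (0.23), Fezf1 (0.28), Sox13 (0.050) and Tox4 (-0.11) were not called. The 3 calls were the same genes under quantile and cyclic loess scaling. Without E18 only Bcl11a remained called, at -0.46, Sox6 was at -0.11 and Tox3 at -0.76 (adjusted p = 0.0715). Sox6 was 9.30 and 8.20 in CPN at E18, the arrays with progenitor markers at 10.68 to 10.84, and 6.71 to 7.21 in every other array. Fezf1 had group means of 4.59 to 5.46, below the array medians, and was called higher in CSMN at E18 (0.87).

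Tox2 and Tox3 were called over time where Tox was not, though the difference between the genes was not tested. Tox3 in CPN was 10.66 and 10.74 at E18 and 6.88 and 6.57 at P14, and in CSMN 8.54 and 8.50 at E18 and 6.10 and 5.05 at P14. It fell by 3.98 in CPN and by 2.94 in CSMN, and both falls were called, beside 8.98% and 5.85% of all genes called lower. Tox2 in CSMN was 8.34 and 7.44 at E18 and 11.03 and 9.04 at P14, a rise of 2.15 (limma adjusted p = 0.0051), beside 9.27% of all genes called higher. The rise was 1.16 without CSMN P14 replicate 1 and 3.14 without replicate 2, and passed both times (adjusted p = 0.0149 and 1.22e-05). The fall of Tox3 in CSMN was also called without either array (-3.47 and -2.41). In CTPN Tox2 was 11.47 and 10.92, above CPN at P14 (9.07 and 8.72) by 2.30 (adjusted p = 0.022). Tox3 was higher in CTPN than in CSMN by 2.33 (adjusted p = 0.0261), the paralog called in that comparison, but not without CSMN P14 replicate 2 (1.80, adjusted p = 0.0935). Without replicate 1 Tox2 was called in it too (2.15, adjusted p = 0.00072).

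Regulators known to act with or against the 4 factors formed a list of 20 genes, of which 18 were measured, Bcl11a among them. In CSMN against CPN, 0 were called higher, 9 lower and 9 in neither direction, with a median of -0.31 (all genes: 2.96% higher, 5.34% lower, median 0.061). The count was 6 without E18 and 9 and 8 without replicate 1 or 2 of CSMN at P14, and 9 under quantile and under cyclic loess scaling. Nr2f1, a nuclear receptor that restrains corticospinal fate in sensory areas, differed by -2.65 ± 0.20 and was called at each of the 4 stages (-3.28, -2.41, -2.38 and -2.51). Lmo4, a LIM-domain protein of callosal neurons, differed by -1.57 and was called at P3, P6 and P14 but not at E18 (-0.88, adjusted p = 0.0968). Tbr1, a T-box factor of layer 6 that represses Fezf2, differed by -1.09 (limma adjusted p = 0.0246) and was called at no single stage. The co-repressors Tle3 and Tle1 differed by -0.89 and -0.82. For Tle1 and for Hes5, a Notch effector of progenitors that differed by -1.11, the difference lay at E18, where it was -3.25 and -4.68. Without E18 these 2 genes stood at -0.011 and 0.072 and were not called.

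The other list holds 15 genes known from comparisons of purified corticospinal neurons with other cortical neurons. It was drawn up partly on samples of the same kind, so its direction here is not independent evidence. All 15 were measured, and 12 were called higher, 0 lower and 3 in neither direction, with a median of 1.09, beside 2.96% of all genes called higher and 5.34% lower. The count was also 12 without E18, without either CSMN array of P14 and under both other scalings, and quantile scaling added 1 gene called lower. Crym, a thyroid hormone binding protein, differed by 3.60 ± 0.23, Pcp4, a calmodulin regulator, by 1.86, and Ldb2, a LIM-domain binding cofactor, by 1.41. S100a10 (1.29), Neto1 (1.22) and Ephb1 (1.19) followed.

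These genes varied in the stage of their largest difference. Crym was 1.38 apart at E18 (adjusted p = 0.0704) and 6.50 at P6, and Pcp4 0.72 at E18 and 3.75 at P6, where Bcl11b (4.64) and Fezf2 (2.59) also had their largest differences. Crym rose in CSMN between E18 and P14 by 3.87 and Pcp4 by 2.11, both called with and without either CSMN P14 array, and none of the 4 factors was called higher over that time. Ephb1, a receptor of axon guidance, was 1.77 apart at E18 and 0.18 at P14 and fell by 1.59 in CSMN (limma adjusted p = 0.00126). Whether these courses differ from those of the 4 factors was not tested. In CTPN against CPN, 4 of the 15 were called higher and 1 lower, beside 0.456% and 0.605% of all genes. Against CSMN 0 were called higher and 2 lower, beside 0.137% and 0.055%.

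**Figure D4:**
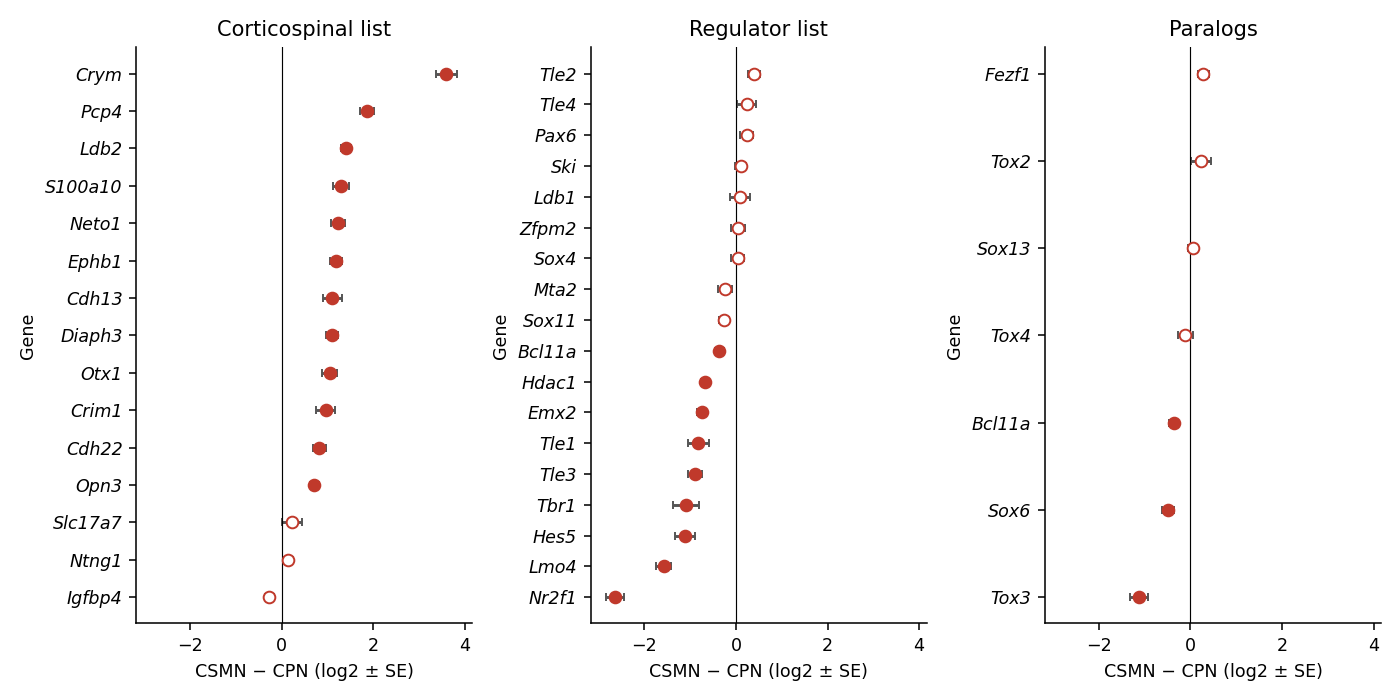
Log2 difference between CSMN and CPN as the mean of 4 stages (horizontal axis, bars for the SE) for the measured genes (rows) of the corticospinal, regulator and paralog lists, 1 panel a list, filled where the test was passed and open where it was not. The filled regulators lie between -2.65 and -0.36 and the filled corticospinal genes between 0.71 and 3.60.

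Over the 9 group means, the genes with the course most like each factor were found by Pearson's r among 7450 genes whose group means spanned at least 1. Group means that share neuron types and ages make high values easy to reach, so these are descriptions. For Bcl11b they were Lratd1 (r = 0.96), Cep41 (0.94) and Grik2 (0.92), the last a kainate receptor subunit. For Fezf2 they were Grik2 (0.96), Tox (0.95) and Npr3 (0.93), a natriuretic peptide receptor that was 5.07 to 5.85 in CPN and 8.45 to 9.63 in CSMN and CTPN. For Sox5 they were Lrrc20 (0.94), Kif26a (0.93) and Grrp1 (0.92), and for Tox they were Fezf2 (0.95), Otx1 (0.90) and Zfp703 (0.89). Kif26a went with Sox5 in its fall, from 9.33 to 6.89 in CPN and from 10.74 to 7.95 in CSMN between E18 and P14. Among the 4 factors, r was 0.95 for Fezf2 with Tox, 0.90 for Bcl11b with Fezf2, 0.83 for Bcl11b with Tox and 0.82 for Bcl11b with Sox5. It was lower for Sox5 with Fezf2 (0.60) and with Tox (0.56).

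**Figure D5:**
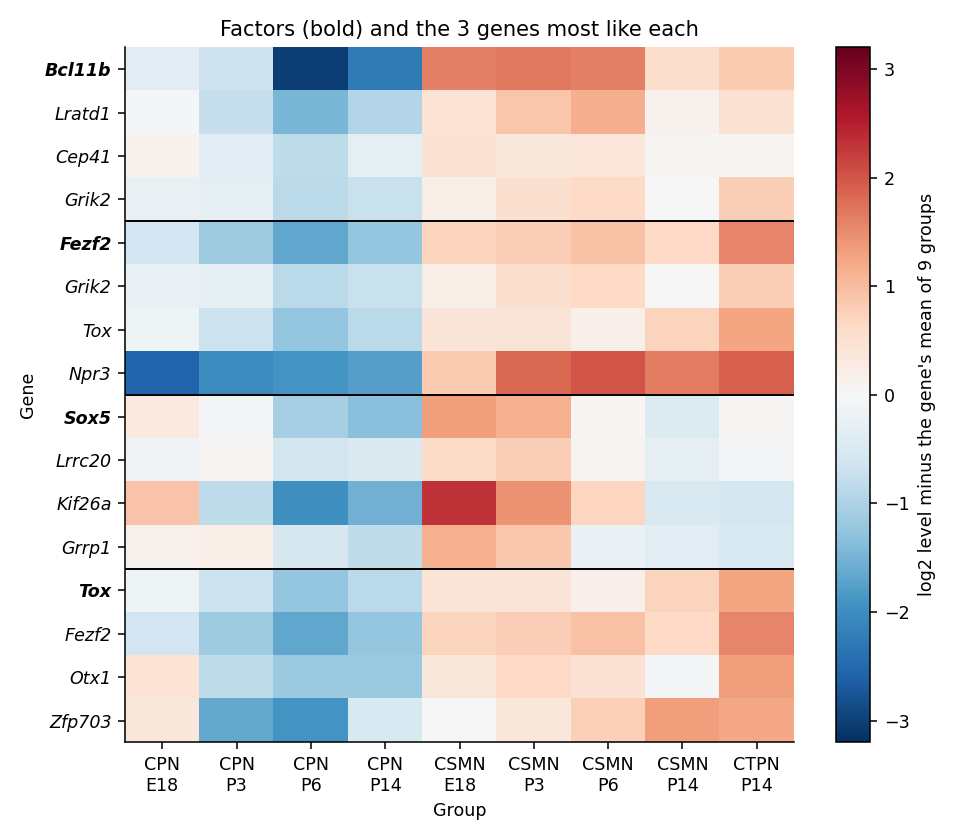
Group means of the 4 factors and of the genes most like each, as log2 difference from the gene's own mean over the 9 groups (colour scale), with neuron type and stage as columns. Bcl11b, Fezf2 and Tox are below their mean in the 4 CPN columns and above it in the CSMN and CTPN columns, while Sox5, Lrrc20, Kif26a and Grrp1 are highest in CSMN at E18 and P3.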

How the data were processed

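RNA was measured on 19 arrays in 9 groups. The authors deposited log2 values, 1 per probe set and array, that RMA had produced per the submitters' processing notes; its version is not given in the sources used here. RNA was amplified in 2 rounds, per the labels. RMA equalises the arrays' distributions at the level of single probes, so levels are relative to all probe sets. The deposited distributions were not identical, with array medians of 6.42 to 6.62 and upper quartiles of 7.85 to 8.26. The 45101 probe sets include 64 controls, and 34945 carry 1 symbol. A gene was read from its brightest probe set, giving 18193 genes. The fit was a limma model with 1 mean per group over all 19 arrays, with 10 degrees of freedom left for the spread and 4.46 added by the prior, and used two-sided tests and Benjamini-Hochberg adjustment over all genes, threshold 0.05. SE and 95% intervals are the model's, and their precision is limited by the 2 or 3 arrays per group. The model takes 1 spread per gene for all groups, so SE, intervals and p-values do not follow the spread of a single group. The fit was also run on simulated data with independent noise of 1 spread per gene for all groups. That run does not test uneven spreads between groups or arrays that vary together.

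The 4 genes and the lists were chosen with earlier results of these data known. Named are the 4 genes, all paralogs, up to 6 genes with the largest called difference from each of the regulator and corticospinal lists, 3 genes most like each factor, and up to 4 markers a list.

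Replicate numbers were checked for pairing by 28 correlations of deviations between same-numbered arrays. Of these, 13 exceeded 0.1 and 2 lay under -0.1 (range -0.22 to 0.59). The main fit did not take the numbers as pairs, and whether same-numbered arrays share a source of variation was not tested. Promoter windows came from RefSeq, which held 3 of the 4 genes. Alternatives were quantile and cyclic loess scaling, dim genes left out, other probe sets, a prior with intensity trend, array weights, only the groups compared, a replicate block and each array left out; leaving E18 or a CSMN P14 array out of the list counts, and such an array out for 7 named genes outside the 4, was added after seeing the data. R 4.3.3, limma 3.58.1, Python 3.11.15 and matplotlib 3.10.9 were used.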

Additional observations from a re-analysis of the deposited data

How the results depend on the processing

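The CSMN-to-CPN difference as the mean of 4 stages kept its direction and call for all 4 genes under every alternative except 3 dim Sox5 probe sets (0.14, 0.13 and 0.17). Calls at single stages, with 2 or 3 arrays a group, were less stable, and the cause was not tested. Some alternatives have fewer arrays or degrees of freedom by their construction, and others, such as array weights, keep all arrays.

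With only the groups compared, calls were lost for Bcl11b at E18, P6 and P14 (1.97, 4.64 and 2.84), Fezf2 at P14 (1.86), Sox5 at E18 (1.02), in CSMN over time (-1.78) and in CTPN against CPN (1.39), and Tox at P6 and P14 (1.39 and 1.58), while Tox was newly called at P3 (1.11) and in CPN over time (-0.73). With array weights, calls were lost for Bcl11b at E18 and P14 (1.97 and 2.84), Fezf2 at P14 (1.86), Sox5 at E18 (1.02) and in CSMN over time (-1.78), and Tox at P14 (1.58), and new calls were Sox5 at P6 (1.12), Tox at P3 (1.03) and Tox in CPN over time (-0.73). Over time means P14 minus E18.

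Quantile scaling added calls for Fezf2 (-0.64) and Tox (-0.69) in CPN over time and for Tox at E18 (0.77) and P3 (1.02). Cyclic loess added Fezf2 (-0.72) and Tox (-0.76) in CPN over time, Sox5 at P14 (1.09) and Tox at P3 (1.03). With the replicate block, Fezf2 in CPN over time was newly called (-0.61, limma adjusted p = 0.0451) and Sox5 at P3 was lost (1.20). The block changed no other call of these comparisons. The intensity trend lost Sox5 at P3 (1.19).

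With the mean of all probe sets, Bcl11b in CSMN over time (-1.32), Tox at P3 (1.13) and Tox in CPN over time (-0.68) were newly called, Sox5 at P3 was lost (0.65) and Tox in CSMN over time changed sign (-0.038). Without probe sets marked x, s or a, Sox5 was lost at P3 (1.08) and in CTPN against CPN (1.50). Over single probe sets, Bcl11b over time gave -0.88 and -1.39 in CPN (lost), -1.40 and -2.09 in CSMN (newly called) and interactions of -0.53 and -0.70 (sign changed). For Tox, 1425483_at gave 0.91 at E18 (newly called), 0.76 at P6, 0.95 at P14 and 1.17 in CTPN against CPN (lost) and -0.25 in CSMN over time (sign changed), and 1425484_at gave -0.18 at E18, -0.16 in CSMN over time (signs changed) and 0.68 at P14 (lost).

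The 6 other Sox5 probe sets, of which 3 are dim, lost calls at E18 (1.29, 0.28 and 0.26), at P3 (1.06, 0.014, 1.30, 0.13 and 1.08), over time in CPN (-0.94, -0.026 and -0.11) and in CSMN (-0.017), and in CTPN against CPN (0.82, 0.20, 1.49, 1.5 and 0.0060). Their signs changed at P3 (-0.20), P6 (-0.095 and -0.10), P14 (-0.17), over time in CPN (0.050) and CSMN (0.16), in CTPN against CSMN (-0.010, -0.38 and -0.52) and against CPN (-0.17), in the step from P3 to P6 in CSMN (0.072) and in the interaction over time (0.27).

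With each array left out in turn, Bcl11b ran from 1.25 to 2.69 at E18, 2.03 to 2.69 at P3, 2.71 to 2.96 at P14, -2.63 to -1.18 in CPN over time and -1.25 to -0.83 in CSMN over time. Fezf2 ran from 1.16 to 1.49 at E18, 1.48 to 2.25 at P14, -0.46 to 0.30 in CSMN over time and 0.54 to 1.31 in CTPN against CSMN. Sox5 ran from 0.70 to 1.34 at E18, 1.04 to 1.33 at P3, 1.01 to 1.22 at P6, 0.94 to 1.84 in CTPN against CPN and -0.44 to 0.20 in the interaction over time. Tox ran from 0.50 to 0.60 at E18, 1.0 to 1.21 at P3, 1.28 to 1.50 at P6, 0.99 to 2.16 at P14, -0.88 to -0.59 in CPN over time, -0.29 to 0.88 in CSMN over time and -0.018 to 1.15 in CTPN against CSMN. Calls were also gained: Bcl11b in CSMN over time (-1.04, adjusted p = 0.0496) without either CPN E18 array, Sox5 at P6 (1.12) without either CSMN P14 array (0.0479) or either CTPN array (0.0363), and Tox at E18 (0.55, 0.0315), at P3 (1.11, 0.00152) and in CPN over time (-0.73, 0.00464) without either CSMN P14 array. A group left with 1 array is assumed to vary like the others.

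Of 30 further steps and interactions under 1 in size, 915 values were recomputed, 68 changed sign and 6 were newly called. Signal over background was not measured, since the deposited values hold no detection call, so values near the array medians, such as Tox in CPN, have no stated detection limit.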
